A study of Caenorhabditis elegans with 18 samples.

Results

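The genes described here are the Caenorhabditis elegans genes whose platform annotation symbol begins with bath- or math-. A probe set was used when it named 1 gene, and a gene with several such probe sets is represented by the one brightest on average over the 18 arrays. The rule found 85 genes, 38 bath and 47 math, among the 17118 genes with a probe set of their own. Affymetrix arrays were hybridised with total RNA from whole worms of the wild-type strain N2 and of lin-35(n745), a strain carrying a mutant allele of lin-35 that the L1 labels call null. Both strains were sampled as embryos, as L1 larvae (the first larval stage) and as L4 larvae (the last), which gives 6 groups of 3 arrays. All groups were grown at 20 °C on NGM plates, an agar medium, seeded with the Escherichia coli strain OP50, and the series' design describes the triplicates as independently grown. The larvae came from synchronised populations, and the animals are labelled hermaphrodites. Values are on a log2 scale, so a difference of 1 is a 2-fold change. Since each array holds RNA of whole animals, fewer cells of a type and less RNA per cell cannot be told apart.

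The symbols name protein domains. A bath gene encodes a protein with a MATH domain, which binds other proteins, and a BTB domain, and a math gene one with a MATH domain alone or with other domains. MATH-BTB proteins act as substrate adaptors of ubiquitin ligases built on the cullin CUL-3: the BTB domain holds the cullin and the MATH domain holds the protein to be ubiquitinated. The best known worm example, MEL-26, bears neither name. It targets the katanin subunit MEI-1, a microtubule-severing protein of the meiotic spindle, for destruction after meiosis, so that the mitotic spindle of the early embryo can form. MATH-33 is a deubiquitinating enzyme of the USP7 type and removes ubiquitin rather than attaching it. The families are much larger in C. elegans than in mammals. LIN-35 is the worm's pocket protein, related to the mammalian retinoblastoma protein, and represses genes together with E2F-type factors and the DREAM complex.

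The within-group correlation of arrays over all probe sets was between 0.9863 and 0.9973, and the highest between groups was 0.9917. Replicate 1 of both embryo groups stood apart in the spiked hybridization controls. Its BioDn control read 10.23 in N2 and 10.55 in lin-35(n745), against 11.75 to 12.67 on the other 16 arrays, and its BioB control read 5.69 and 6.04, against 4.66 to 5.51. Embryo results are therefore given with and without these arrays. For the interactions from embryo, this is limited to the calls lost among members named by the rule. The lin-35 transcript was lower in the mutant at each stage: 7.88 ± 0.30 against 9.26 ± 0.17 (SD, n = 3) in embryos, then 6.57 ± 0.36 against 7.84 ± 0.02 at L1, and lastly 6.41 ± 0.08 against 7.67 ± 0.06 in L4 larvae (limma adjusted p = 2.07e-06, 3.29e-06 and 4.35e-06). The log2 of the summed embryo markers (9 of 10 measured) was 11.28 to 11.75 on embryo arrays and 9.15 to 9.46 on larval arrays. The sum of the sperm markers (10 of 11 measured) was 14.47 to 14.80 at L4 and no more than 9.70 on any other array. That 9.70 belongs to N2 L1 replicate 1, which also had a sum of yolk markers (5 of 6 measured) of 10.25, above the 9.83 to 10.06 of the N2 L4 arrays, while the other N2 L1 arrays had 8.44 and 8.73. The L1 counts are therefore also given without this array.

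Most of the family gave weak signal. The median of the members' means over the 18 arrays was 4.18, against 6.32 over all genes, and 12 members (14.1%) averaged 6 or more, against 53.6% of genes. The 6 group means of 63 members all lay under 6, and for 27 members all lay under 4. No detection call was used here, so a low value is not read as absence. The 12 brighter members were bath-42, bath-38, bath-44, math-33, math-20, bath-41, math-26, math-4, math-3, bath-40, bath-39 and bath-5. Of the 85 genes, RefSeq lists 66 as protein coding and 19 as pseudogenes, and 0 of the 19 pseudogenes averaged 6 or more. Levels of different probe sets are not compared further, because probes differ in brightness.

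RefSeq's WBcel235 gene order puts 76 of the 85 genes on chromosome II. The exceptions are math-46, bath-25 and bath-40 on chromosome I, bath-41, bath-15 and bath-42 on III, and math-33, bath-39 and bath-36 on V. On chromosome II 52 members fall within 100 consecutive genes, and 56 members stand in 13 runs of 2 or more neighbours with no other gene between them. The longest run holds 13 members: math-15, math-14, math-10, math-11, math-13, math-16, math-17, math-5, math-6, math-7, math-8, math-9 and math-12. Close relatives can share probes: 8 members were measured by a probe set of the "_x_at" kind, in which some probes may match other sequences, and 8 by one of the "_s_at" kind, which matches several transcripts. How far cross-hybridisation among relatives enters the values was not tested.

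**Figure D1:**
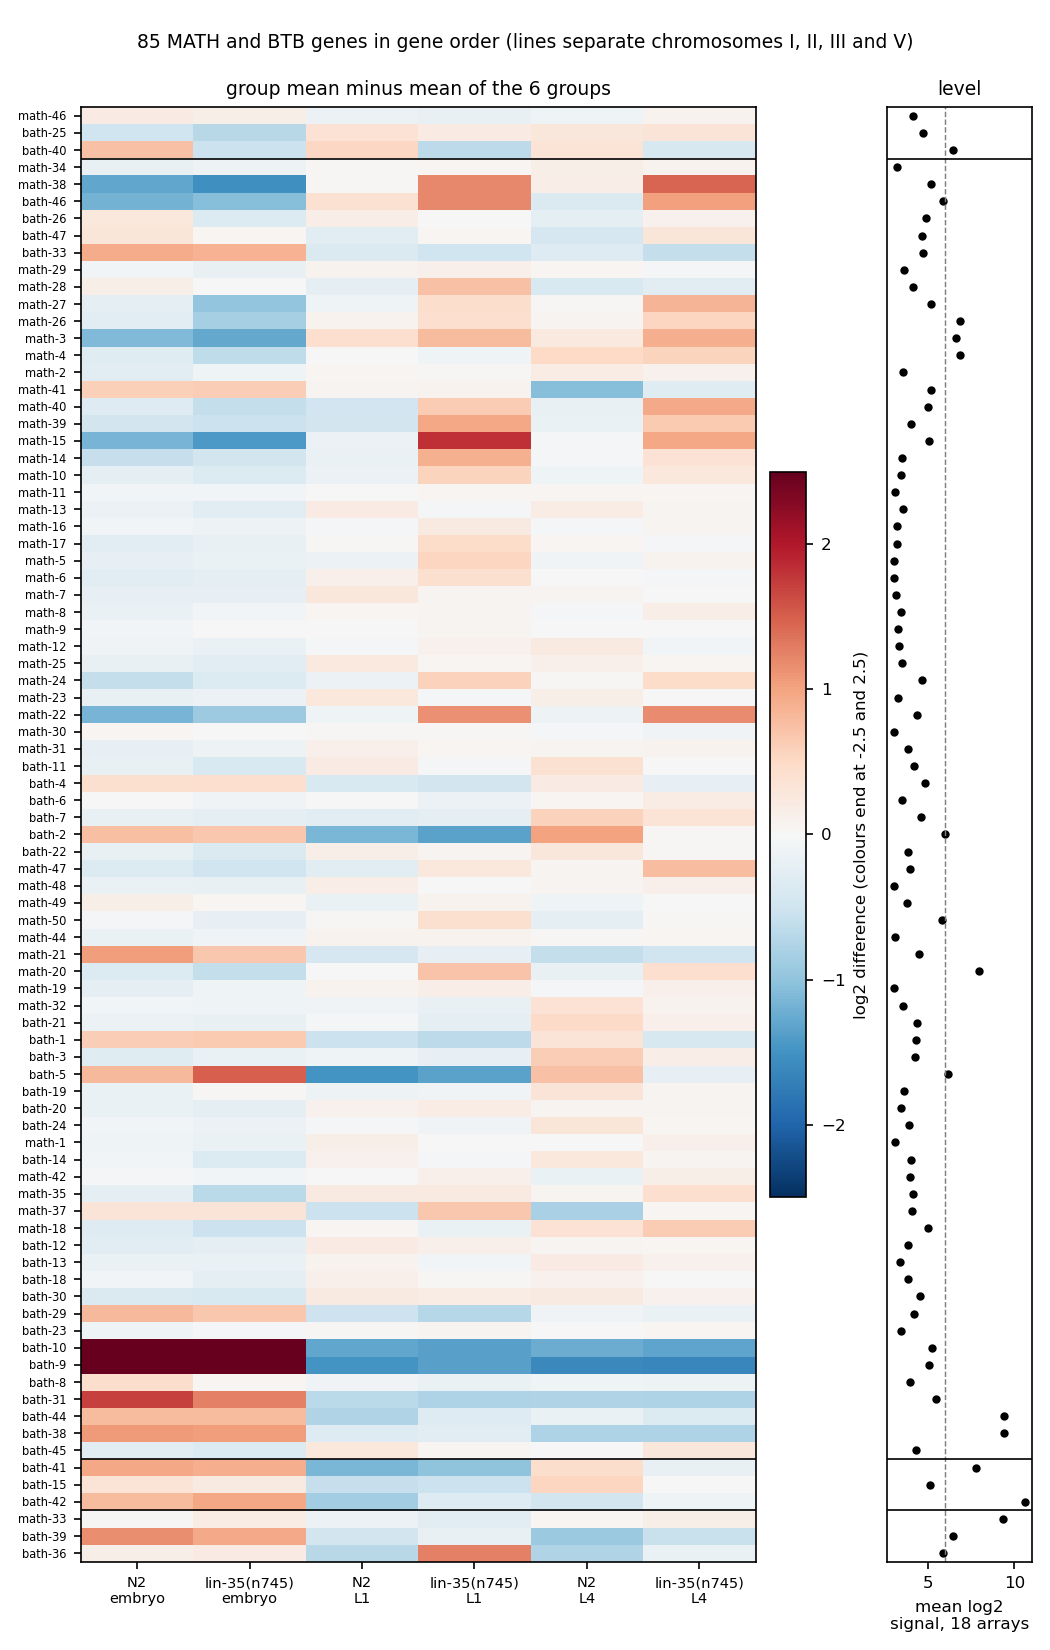
Group means of the 85 genes in gene order, each minus the mean of its 6 groups (colour, log2), with the gene's mean over 18 arrays beside it (log2 signal, dashed line at 6). The reddest cells are bath-9 and bath-10 in embryos of both strains, and 12 points reach the dashed line.

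In wild-type development the bath and math genes differed in direction between embryo and L1. A gene is called here when its limma adjusted p (Benjamini-Hochberg over all 22548 probe sets) was under 0.05. From N2 embryo to N2 L1, 8 of 38 bath genes were called higher and 18 lower, while 24 of 47 math genes were called higher and 5 lower. Over all members this makes 32 higher and 23 lower, 37.6% and 27.1%, against a background of 42.2% higher and 32.9% lower over all genes. The member median was 0.08 and that of all genes 0.15. These counts depend on scaling. The median of all probe sets rose by 0.1292 from embryo to L1, and by 0.2526 once the arrays had been given equal medians. After quantile normalization 14 members were called higher and 26 lower (math 10 and 6, bath 4 and 20), and after centring 37 and 21. Without N2 embryo replicate 1 the counts were 27 and 25.

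The 5 largest falls from embryo to L1 were those of bath-9, bath-10, bath-31, bath-5 and bath-41. bath-9 read 8.09, 8.27 and 8.35 in N2 embryos, then 3.40, 3.59 and 3.74 in L1 larvae, and 3.44, 3.51 and 3.40 in L4 larvae. Its neighbour bath-10 read 8.21, 7.88 and 7.75, then 3.98, 3.95 and 3.94, then 4.08, 3.98 and 4.00. Both were high in every embryo array and near the bottom of the range in every larval array, with no overlap. Without a detection call the larval values are only the probes' low readings, so the falls below may be understated. From embryo to L1 bath-9 fell by 4.66 ± 0.12 and bath-10 by 3.99 ± 0.11 (SE; limma adjusted p = 5.73e-18 and 3.62e-17). The mutant embryos read 8.01, 8.10 and 7.75 for bath-9 and 7.64, 7.97 and 7.82 for bath-10, and neither gene was called between the strains at any stage.

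A second group was bright in embryos and lower in larvae. bath-42 read 11.48, 11.29 and 11.51 in N2 embryos, then 9.75, 9.81 and 9.75 in L1 larvae, and 10.16, 10.18 and 10.16 at L4. bath-38 read 10.46, 10.39 and 10.62, then 9.14, 9.13 and 9.02, then 8.59, 8.61 and 8.73. bath-31 read 7.21, 7.10 and 7.30, then 4.87, 4.94 and 4.66, then 4.71, 4.55 and 4.93. In each of these 3 genes every embryo array lay above every larval array. The same held for bath-39, with N2 means of 7.61 ± 0.22 in embryos, 5.99 ± 0.16 at L1 and 5.52 ± 0.23 at L4, and for bath-44, with 10.19 ± 0.28, 8.63 ± 0.23 and 9.22 ± 0.11 (SD, n = 3). Their changes from embryo to L1 were -1.66 ± 0.08 for bath-42, -1.39 ± 0.10 for bath-38, -2.38 ± 0.15 for bath-31, -1.62 ± 0.13 for bath-39 and -1.56 ± 0.16 for bath-44, all called.

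**Figure D2:**
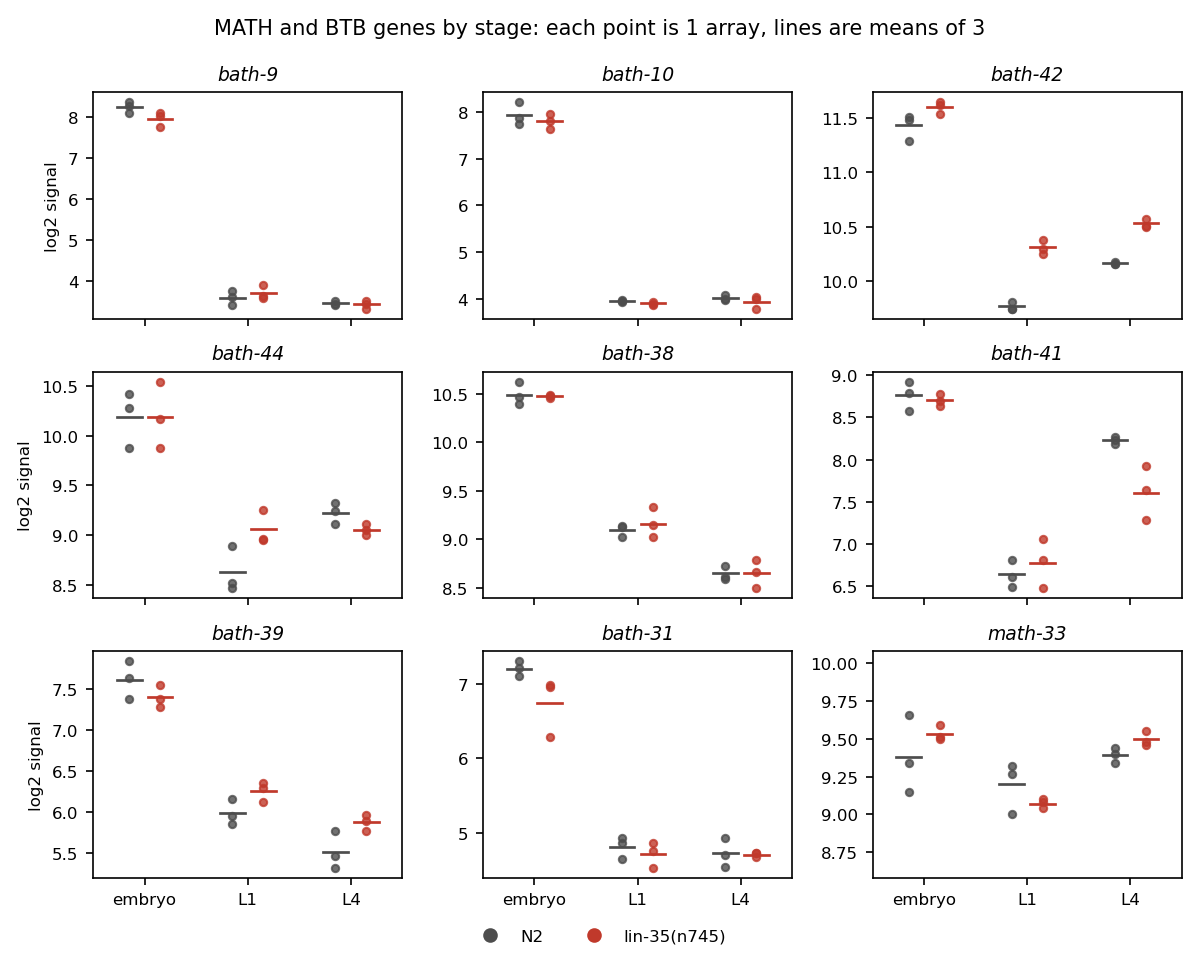
Signal (log2, vertical axis) of 9 members at 3 stages (horizontal axis) in N2 (grey) and lin-35(n745) (red); points are single arrays and lines are means of 3. The first 8 are highest in embryos, while math-33 keeps to values between 9.0 and 9.66 on all arrays.

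bath-5, bath-2 and bath-41 were lower at L1 than in embryos and rose again by L4. In N2, bath-5 read 6.82, 6.90 and 7.21 in embryos, then 4.68, 4.65 and 4.74 in L1 larvae, and 7.15, 6.71 and 6.84 at L4. bath-2 read 6.69, 6.62 and 6.91, then 4.86, 4.93 and 4.76, then 7.09, 7.04 and 6.85. Embryo and L4 arrays overlap for both genes, while all L1 arrays lie below them. bath-41 fell by 2.12 ± 0.15 from embryo to L1 and was higher at L4 than at L1 by 1.59 ± 0.15, but stayed lower at L4 than in embryos (-0.53 ± 0.15, limma adjusted p = 0.00343). From L1 to L4 bath-5 was higher by 2.21 ± 0.16 and bath-2 by 2.14 ± 0.14 (limma adjusted p = 3.36e-10 and 1.52e-10), and bath-15 (1.12 ± 0.11) and bath-1 (0.87 ± 0.13) were called higher as well. Over all members 17 were called higher at L4 than at L1 and 5 lower, against 22.7% and 23.2% of all genes. Of those 17, 14 were bath genes. The 5 lower ones were math-41 (-1.13 ± 0.11), bath-46 (-0.74 ± 0.11), bath-39 (-0.47 ± 0.13), bath-38 (-0.45 ± 0.10) and math-50 (-0.25 ± 0.09). The math-50 call was lost with the replicate block, with the intensity trend and in 5 of the 6 fits that left out 1 array.

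The largest rises in wild-type larvae were smaller than the largest falls. math-38 read 3.93, 4.00 and 3.72 in N2 embryos, then 5.26, 5.0 and 5.37 in L1 larvae, and 5.29, 5.44 and 5.33 at L4, with no embryo array reaching a larval one. Its difference from embryo was 1.33 ± 0.12 at L1 and 1.47 ± 0.12 at L4. math-3 (1.52 ± 0.19 at L1), bath-46 (1.57 ± 0.11), math-22 (1.05 ± 0.19) and math-15 (1.01 ± 0.24) completed the 5 largest rises from embryo to L1. From embryo to L4, 35 members were called higher and 21 lower, against 40.4% and 34.6% of genes. This comparison shares the N2 embryo arrays with the one to L1. After quantile normalization the counts were 20 and 24, after centring 46 and 18, and without N2 embryo replicate 1 they were 32 and 21.

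Between the strains, embryos showed few differences in the family. In lin-35(n745) embryos 1 member was called higher and 6 lower, 1.18% and 7.06%, against 6.23% and 4.12% of all genes. The member median was -0.06 and that of all genes -0.04. bath-40 had the largest difference: 7.23, 6.98 and 7.32 in N2 against 6.0, 5.65 and 6.08 in the mutant, with no overlap, a fall of 1.27 ± 0.17 (limma adjusted p = 2.67e-05). math-27, listed as a pseudogene, read 4.89, 4.87 and 5.18 against 4.34, 3.83 and 4.46 (-0.77 ± 0.14, adjusted p = 0.001). Its neighbour math-26 read 6.28, 6.77 and 6.65 against 6.01, 5.82 and 6.21 (-0.55 ± 0.13, adjusted p = 0.00801). The mutant arrays lay below the N2 arrays in all 3 genes. math-26 lost its call without N2 replicate 2 or without lin-35(n745) replicate 2 (-0.45 in both fits, adjusted p up to 0.0582).

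The other 4 embryo calls were those of bath-5, bath-26, bath-8 and math-21. bath-5 was the member called higher, at 7.65, 7.96 and 7.42 against 6.82, 6.90 and 7.21 (0.70 ± 0.16, adjusted p = 0.00579). bath-26 (-0.59 ± 0.17), bath-8 (-0.41 ± 0.11) and math-21 (-0.38 ± 0.11) were called lower. Without replicate 1 of both strains, bath-40 (-1.28), math-27 (-0.88), math-26 (-0.69) and bath-26 (-0.73) passed (adjusted p = 0.00131, 0.00547, 0.00688 and 0.0489). bath-5 (0.64, adjusted p = 0.073), bath-8 (-0.43, 0.0804) and math-21 (-0.31, 0.149) did not pass. With replicate 1 as a block of its own all 7 passed, with adjusted p up to 0.0322. Lower calls numbered 3 when N2 replicate 3 was left out, and 3 when lin-35(n745) replicate 2 was. On the uncalled side, the nearest to the threshold were math-35 (-0.42, adjusted p = 0.0562) and bath-31 (-0.46, adjusted p = 0.0619).

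**Figure D3:**
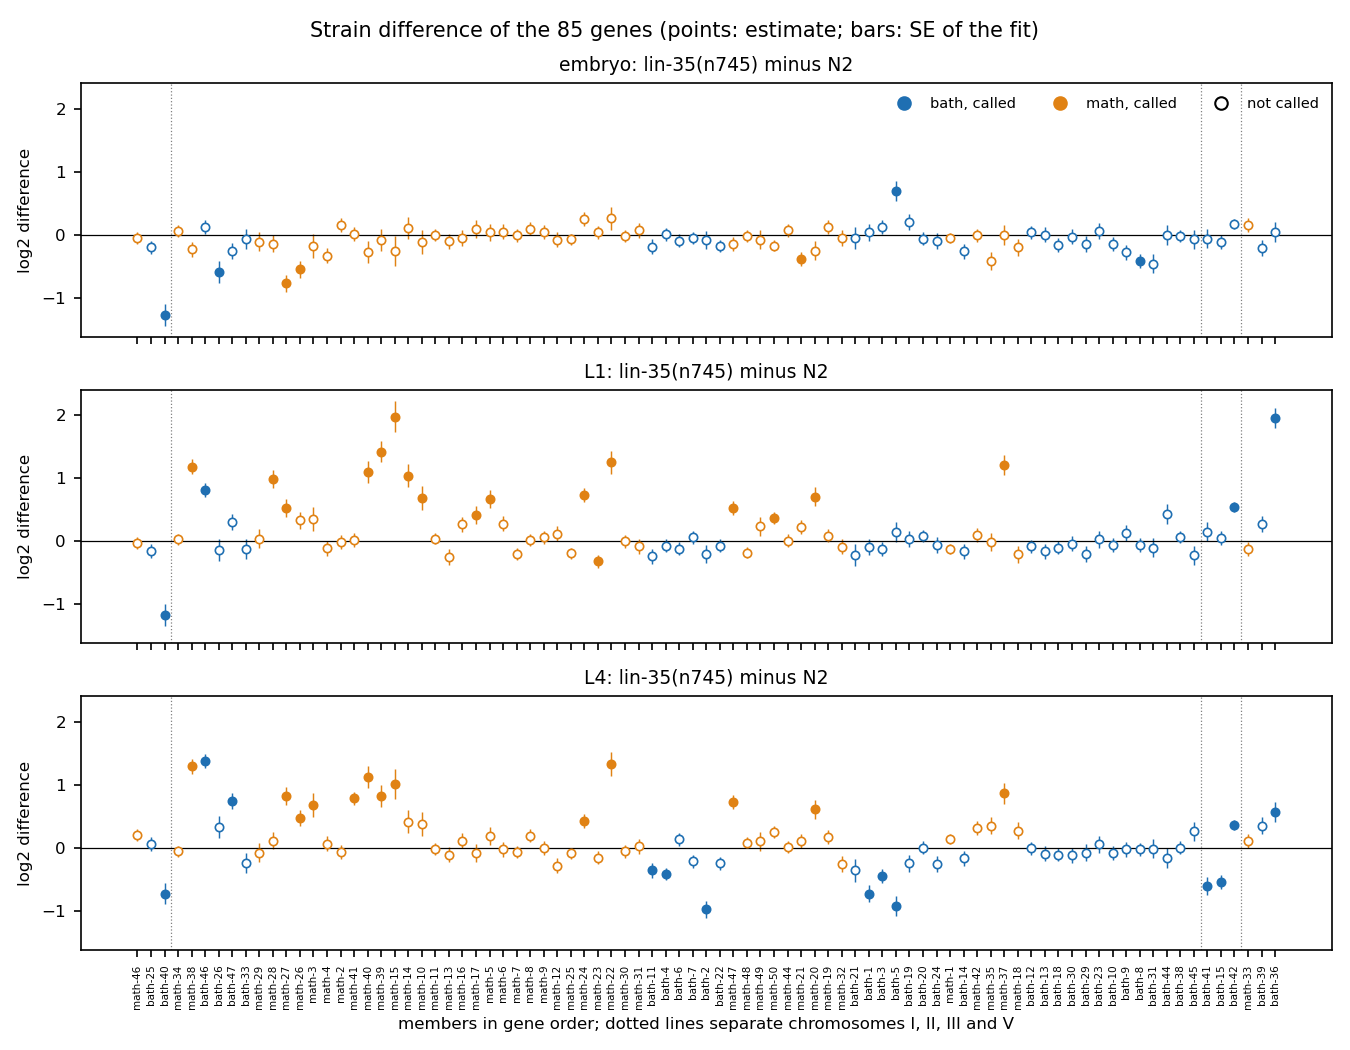
Difference between lin-35(n745) and N2 (log2, vertical axis) at each stage for the 85 genes in gene order (horizontal axis); points are estimates, bars their SE, filled points are called, blue for bath and orange for math. Filled points number 7 in embryos, 21 at L1 and 26 at L4, and 16 of the 19 called higher at L1 are math genes.

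At L1 the mutant had higher signal for 19 members and lower for 2, 22.4% and 2.35%, against 8.72% and 6.81% of all genes. Of the 47 math genes 16 were called higher and 1 lower, and of the 38 bath genes 3 higher and 1 lower. The member median was 0.03, against -0.04 for all genes, so the middle of the list differed little from that of all genes. In 9 called members the difference was at least 2-fold, and in 19 of the 21 the 3 mutant arrays did not overlap the 3 N2 arrays. Calls and overlap rest on the same arrays, so this is no separate support. The shares of non-overlap and of 2-fold differences over all called genes were not computed. For 13 of the 21 both group means were under 6. Some germline markers differed at this stage too: the log2 of their sum (17 of 17 measured, none at 0) was 11.40 to 11.63 in N2 and 13.29 to 13.45 in the mutant, and 5 of the 17 were called higher and 2 lower. Their median difference was -0.095, with single markers from -0.52 to 4.81, so the sum does not describe most of them. Yolk markers summed to 8.44 to 10.25 in N2 and 7.67 to 8.05 in the mutant, with 4 of 5 called lower. Sperm markers summed to 8.76 to 9.70 and 8.39 to 8.63, with 3 of 10 lower. Intestine markers summed to 13.80 to 13.95 and 13.90 to 14.13, with 2 of 6 higher, and 1 of 4 cuticle markers was lower. Their part in the members' differences was not tested. Without N2 L1 replicate 1 the members' counts at L1 were 18 higher and 1 lower.

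The largest L1 differences were those of math-15 and bath-36. math-15 read 4.96, 4.88 and 4.88 in N2 and 7.50, 7.17 and 6.01 in the mutant, a difference of 1.98 ± 0.24 (limma adjusted p = 4.31e-06). bath-36, on chromosome V, read 5.42, 4.87 and 5.27 in N2 and 7.42, 7.23 and 6.78 in the mutant (1.95 ± 0.16, adjusted p = 2.45e-08). No N2 array reached a mutant one in either gene. Without any single array the difference stayed between 1.68 and 2.42 for math-15 and between 1.80 and 2.14 for bath-36.

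Several other math genes were at least 2-fold higher at L1. math-39 read 3.55, 3.53 and 3.65 in N2 and 5.39, 5.18 and 4.41 in the mutant (1.42 ± 0.17, adjusted p = 2.96e-06). Its neighbour math-40 read 4.84, 4.33 and 4.53 against 5.77, 5.85 and 5.38 (1.10 ± 0.17, adjusted p = 0.000119). The groups did not overlap in either gene. math-22 read 4.32, 3.97 and 4.58 against 5.96, 5.59 and 5.06 (1.25 ± 0.19), and math-38 read 5.26, 5.0 and 5.37 against 6.21, 6.36 and 6.60 (1.18 ± 0.12). math-37 (1.21 ± 0.16) and math-14 (1.04 ± 0.18) also passed 2-fold, and bath-40 fell by 1.17 ± 0.17, with 6.82, 7.16 and 6.87 in N2 and 6.05, 5.48 and 5.80 in the mutant. In 15 of the 19 members called higher at L1, lin-35(n745) replicate 3 was the lowest array of its group. The matching share over all genes called higher at L1 was not computed, so this is not read as a trait of the family.

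Smaller L1 differences were called in the remaining members. math-28 (0.99 ± 0.14), bath-46 (0.81 ± 0.11), math-24 (0.73 ± 0.11), math-20 (0.71 ± 0.15), math-10 (0.69 ± 0.19), math-5 (0.67 ± 0.14), bath-42 (0.54 ± 0.08), math-27 (0.53 ± 0.14), math-47 (0.53 ± 0.11), math-17 (0.42 ± 0.14) and math-50 (0.37 ± 0.09) were higher, and math-23 (-0.32 ± 0.10) was lower. bath-42 read 9.75, 9.81 and 9.75 in N2 and 10.25, 10.30 and 10.38 in the mutant. When the 6 L1 arrays were fitted alone, 16 of the 21 passed, and math-5 (adjusted p = 0.0548), math-50 (0.0799), math-23 (0.126), math-10 (0.172) and math-17 (0.229) did not. math-10 lost its call without either of the first 2 replicates of either strain (0.42 without lin-35(n745) replicate 1), and math-17 held it only without lin-35(n745) replicate 3 (0.62). math-23 held its call only without lin-35(n745) replicate 2. The math-27 call held in 5 of the 6 fits that left out 1 array (adjusted p up to 0.0665). bath-44 (0.43, adjusted p = 0.0726) and math-26 (0.33, adjusted p = 0.0943) came nearest to the threshold without passing.

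**Figure D4:**
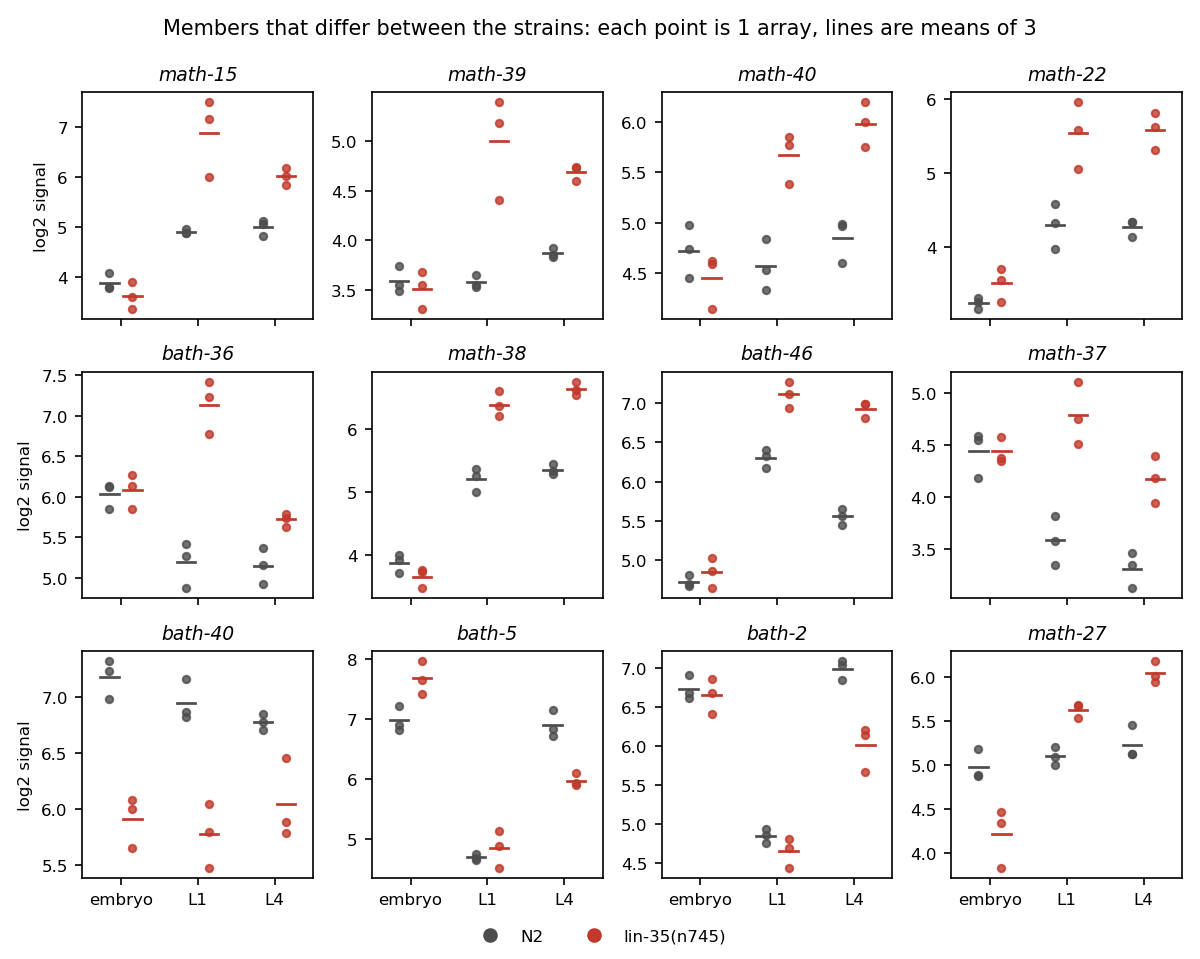
Signal (log2, vertical axis) of 12 members at 3 stages (horizontal axis) in N2 (grey) and lin-35(n745) (red); points are single arrays and lines are means of 3. The 8 genes of the upper 2 rows are higher in the mutant at L1 and L4, bath-40 is lower at all stages, and bath-5 and bath-2 are lower in the mutant at L4.

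At L4, 17 members were called higher in the mutant and 9 lower, 20.0% and 10.6%, against 8.24% and 8.11% of all genes. The calls split by family name: 13 of 47 math genes were called higher and 0 lower, while 4 of 38 bath genes were called higher and 9 lower. The math split was the same after centring and after quantile normalization, and so was the bath split. The member median was 0.01, against -0.03 for all genes. In all 26 called members the arrays of the strains did not overlap, in 5 the difference was at least 2-fold, and for 14 both group means were under 6. As at L1, the overlap rests on the arrays that gave the calls and is no separate support. The shares of non-overlap and of 2-fold differences over all called genes were not computed. Germline markers summed to 13.25 to 13.32 in N2 and 13.87 to 13.90 in the mutant, with 6 of 17 called higher and 2 lower. Their median difference was -0.04, with single markers from -0.84 to 1.98. Yolk markers summed to 9.83 to 10.06 in N2 and 8.48 to 8.59 in the mutant, with 4 of 5 called lower. Sperm markers summed to 14.47 to 14.50 and 14.56 to 14.80, with 1 of 10 lower. Intestine markers summed to at most 14.06 in N2 and to 14.22 to 14.28 in the mutant, with 3 of 6 higher, and cuticle markers to 12.69 to 12.84 and 12.67 to 12.82, with 2 of 4 lower. Their part in the members' differences was not tested.

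The higher members at L4 were led by bath-46 and math-22. bath-46 read 5.45, 5.66 and 5.57 in N2 and 6.81, 6.99 and 6.99 in the mutant (1.37 ± 0.11, limma adjusted p = 2.01e-08). math-22 read 4.33, 4.13 and 4.34 against 5.82, 5.32 and 5.63 (1.32 ± 0.19, adjusted p = 3.36e-05). math-38 read 5.29, 5.44 and 5.33 against 6.54, 6.62 and 6.75 (1.29 ± 0.12, adjusted p = 1.62e-07). All 3 were also called higher at L1. math-40 (1.12 ± 0.17) and math-15 (1.01 ± 0.24) were the other members past 2-fold. Below 2-fold, math-37 (0.86 ± 0.16), math-39 (0.82 ± 0.17), math-27 (0.82 ± 0.14), math-41 (0.78 ± 0.11), bath-47 (0.74 ± 0.13), math-47 (0.72 ± 0.11), math-3 (0.67 ± 0.19), math-20 (0.61 ± 0.15), bath-36 (0.57 ± 0.16), math-26 (0.47 ± 0.13), math-24 (0.42 ± 0.11) and bath-42 (0.36 ± 0.08) were called higher. Of these, math-26, math-3, math-24 and bath-36 lost the call without at least 1 of the L4 arrays, with adjusted p up to 0.0795, 0.122, 0.102 and 0.122. Of the 6 fits that left out 1 array, the call held in 4 for math-26 and math-24, 3 for math-3 and 2 for bath-36.

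Of the 14 bath genes called higher from L1 to L4 in the wild type, 7 were lower in the mutant at L4, while bath-42 was higher there. Both comparisons use the same N2 L4 arrays, so a high N2 L4 reading favours both calls. The matching share over all genes was not computed. bath-2 read 7.09, 7.04 and 6.85 in N2 and 6.21, 5.67 and 6.15 in the mutant (-0.98 ± 0.14, limma adjusted p = 5.16e-05). bath-5 read 7.15, 6.71 and 6.84 against 6.09, 5.89 and 5.93 (-0.93 ± 0.16, adjusted p = 0.000226). bath-1 read 4.53, 4.84 and 4.61 against 3.86, 3.94 and 3.97 (-0.73 ± 0.13, adjusted p = 0.00034). In each the mutant arrays lay below the N2 arrays and, for bath-2 and bath-5, above all L1 arrays. bath-41 read 8.18, 8.23 and 8.27 against 7.92, 7.28 and 7.64 (-0.61 ± 0.15, adjusted p = 0.00719), and bath-15 read 5.65, 5.67 and 5.79 against 5.02, 5.22 and 5.23 (-0.55 ± 0.11, adjusted p = 0.00169). bath-40 (-0.73 ± 0.17), bath-3 (-0.45 ± 0.11), bath-4 (-0.42 ± 0.10) and bath-11 (-0.36 ± 0.12), a listed pseudogene, made up the rest. bath-41 had an adjusted p of up to 0.0649 when 1 array was left out, and bath-11 one of up to 0.257. The call held in 5 of the 6 such fits for bath-41 and in 1 for bath-11.

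Across stages, 36 of the 85 members were called in at least 1 strain comparison, and 49 (57.6%) in none, against 69.4% of all genes. The L1 and L4 comparisons use different arrays but come from the same fit, so a gene's tests share 1 estimate of spread. In both, 13 members (15.3%) were called higher, against 4.29% of genes: bath-36, bath-42, bath-46, math-15, math-20, math-22, math-24, math-27, math-37, math-38, math-39, math-40 and math-47. Of these, bath-36 held its L4 call in 2 of the 6 fits without 1 array, math-24 held its L4 call in 4, and math-27 its L1 call in 5. bath-40 was lower at every stage, and math-27 was lower in embryos and higher at both larval stages. bath-5 was higher in embryos and lower at L4, and math-26 the reverse. math-33, the deubiquitinase gene, was called at no stage: its strain differences were 0.15 ± 0.11 in embryos, -0.13 ± 0.11 at L1 and 0.10 ± 0.11 at L4, and its N2 arrays ranged from 9.0 to 9.66.

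Whether the strain difference itself changed with stage was tested as an interaction. From embryo to L1 the strain difference moved up in 17 members and down in 0, against 5.22% and 4.4% of genes. It moved most in math-15 (2.24 ± 0.34, limma adjusted p = 0.000168), bath-36 (1.91 ± 0.23, adjusted p = 1.29e-05), math-39 (1.5 ± 0.24), math-38 (1.41 ± 0.17) and math-40 (1.37 ± 0.25). From embryo to L4 it moved up in 15 and down in 4, against 4.14% and 4.18% of genes. This test shares the embryo arrays with the former. Among the members named by the rule, math-22 lost both calls without both embryo replicate 1 arrays (0.906 to L1 and 0.976 to L4). In some fits without 1 array, math-22 lost its call to L1, and math-15 and bath-26 lost theirs to L4. The 4 that moved down were bath-5 (-1.63 ± 0.22, adjusted p = 5.13e-05), bath-2 (-0.91 ± 0.20), bath-1 (-0.78 ± 0.18) and bath-3 (-0.57 ± 0.16). Between L1 and L4 it moved up in 2 and down in 7, against 3.46% and 3.72% of genes. bath-36 moved down by 1.38 ± 0.23 (adjusted p = 0.00069), and bath-5, math-28, bath-2, bath-41, bath-1 and bath-15 moved down too, while math-41 and bath-46 moved up. Of the 12 fits that left out 1 array, 10 ended the call of bath-1, 9 that of bath-41, 8 that of bath-46, 5 that of bath-15 and 4 that of bath-2, and the intensity trend ended that of bath-46 too. The number of calls from L1 to L4 was 4 without N2 L1 replicate 3 and 13 at most with another array left out.

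Some runs on chromosome II held several strain calls and others none. Most members stand in runs, so calls fall in runs by construction, and no background was computed. In the run math-41, math-40 and math-39 all 3 were called higher at L4, and math-40 and math-39 at L1. In the run math-28, math-27, math-26 and math-3, 2 were called lower in embryos, 2 higher at L1 and 3 higher at L4. Of the 13 members of the longest run, 5 were called higher at L1 and 1 at L4: math-15, math-14, math-10, math-17 and math-5 at L1, and math-15 at L4. The run bath-1, bath-3 and bath-5 had all 3 lower at L4, and so had 3 of the 10 members of the run that starts with math-24, namely bath-11, bath-4 and bath-2. The run bath-23, bath-10 and bath-9 had no strain call. Neither had the run bath-19 and bath-20, the run bath-24, math-1 and bath-14, or the run math-42 and math-35. The run bath-12, bath-13 and bath-18 had none either.

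Neighbours' profiles over the 18 arrays were described by Pearson's r across arrays, which mixes stage and strain. Over 43 pairs of direct neighbours the median r was 0.31, and over the 2807 other pairs of members on chromosome II it was 0.20. An r over 0.8 was found in 7 neighbour pairs (16.3%) and in 135 of the other pairs (4.81%). The highest were bath-10 with bath-9 (0.99), math-15 with math-14 (0.96), math-27 with math-26 (0.94), math-26 with math-3 (0.91), math-40 with math-39 (0.91) and math-14 with math-10 (0.90). math-27, math-26 and math-3 are all measured by "_x_at" probe sets. Not all neighbours resembled each other: math-41 and math-40 had an r of -0.27, and math-44 and math-21 one of -0.72.

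6 members have more than 1 probe set of their own, and the second probe set did not always give the same call. For math-37 the second probe set had a strain difference of 0.14 ± 0.11 at L1 and 0.27 ± 0.11 at L4, neither called (adjusted p = 0.431 and 0.0947). It was called higher from N2 embryo to L1 (0.25 ± 0.11) where the first was called lower (-0.87 ± 0.16). This was the 1 conflict of direction found among probe sets that name 1 gene. For bath-42 the second probe set was called higher in mutant embryos (0.41 ± 0.11, adjusted p = 0.0199), where the first was not (0.17 ± 0.08, adjusted p = 0.253). At L1 and L4 it differed by 0.28 ± 0.11 and 0.23 ± 0.11 without a call (adjusted p = 0.0931 and 0.186). For bath-26 the second probe set gave -0.64 ± 0.11 in embryos (adjusted p = 0.000563), a call in the same direction as the first.

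The machinery that MATH-BTB adaptors work with gave calls at each stage. The list of 23 measured genes takes in CUL-3, its neddylation and its adaptors. It also holds mei-1, mei-2 and general ubiquitin genes such as uba-1 and ubq-1. Of the 23, 1 was called higher and 2 lower in embryos, 4 higher and 1 lower at L1, and 1 higher and 1 lower at L4. The higher share at L1 was 17.4%, against 8.72% of all genes, and the lower share in embryos 8.7%, against 4.12%. The remaining shares were below those of all genes. In embryos 4.35% were higher, against 6.23%, and at L1 4.35% lower, against 6.81%. At L4 4.35% were higher and 4.35% lower, against 8.24% and 8.11%. cul-3 itself read 7.13 ± 0.29 in N2 and 7.08 ± 0.11 in the mutant at L1 (SD, n = 3) and was called at no stage. mel-26 was higher in mutant L1 larvae, 8.90 ± 0.07 against 8.47 ± 0.06 (0.42 ± 0.11, limma adjusted p = 0.00957), and was not called in embryos (0.02 ± 0.11) or at L4 (0.19 ± 0.11). The katanin subunit genes mei-1 and mei-2 differed by 0.13 or less at every stage, uncalled. The others higher at L1 were csn-3 (0.47 ± 0.10), a subunit of the COP9 signalosome that removes NED-8 from cullins, ula-1 (0.38 ± 0.11), part of the NED-8 activating enzyme, and uba-1 (0.28 ± 0.09), the ubiquitin activating enzyme. rbx-2, a RING subunit of cullin ligases, was lower (-0.36 ± 0.12). In embryos the polyubiquitin gene ubq-1 was higher (0.33 ± 0.10) and csn-1 (-0.37 ± 0.11) and kel-1 (-0.39 ± 0.12) were lower. At L4 dcn-1, which promotes neddylation, was higher (0.33 ± 0.11) and kel-8 lower (-0.64 ± 0.16). In wild-type development 18 of the 23 (78.3%) were lower at L1 than in embryos and 2 higher, against 32.9% and 42.2% of all genes.

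Other adaptor families are given for scale, as counts with no test between lists. Of 18 genes named btb-, which share the BTB domain, 0 were called higher and 2 lower in mutant embryos, 3 higher and 0 lower at L1, and 3 higher and 1 lower at L4. Of 310 F-box genes named fbxa-, fbxb- or fbxc-, adaptors of the CUL-1 type of ligase, 24 were called higher and 31 lower in embryos, 44 higher and 2 lower at L1, and 43 higher and 11 lower at L4. The F-box shares at L1 were 14.2% higher and 0.645% lower, beside 34.0% and 2.13% for the math genes and 7.89% and 2.63% for the bath genes. Of 18 genes of the other cullin ligases, 3 (16.7%) were called higher and 0 lower in embryos. At L1 4 (22.2%) were higher and 0 lower, and at L4 4 (22.2%) higher and 2 (11.1%) lower.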

How the data were processed

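Total RNA of 18 whole-worm samples was hybridised to Affymetrix arrays. The authors deposited log2 probe-set values made with RMA, per the submitters' processing notes; no RMA version or genome build is named in the labels or headers. The log2 scale was inferred from the values, which run from 2.553 to 15.02 with array medians of 6.206 to 6.389. Arrays give no read depth; their number (3 a group) limits the precision.

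From the 22625 probe sets 77 controls were left out. 20766 probe sets name 1 gene, 887 several and 895 none. The deposited values were fitted with limma 3.58.1 (R 4.3.3) as 6 group means over all 18 arrays (12 residual degrees of freedom, 7.66 prior), with two-sided moderated tests and Benjamini-Hochberg adjustment over 22548 probe sets. Background shares count 17118 genes, 1 probe set each. ± marks the SE of a difference or the SD of a level. On simulated L1 arrays of 22548 probe sets, 97% of 2-fold changes (log2 of 1) and 43% of changes of 0.5 were called, and 7 unchanged probe sets. Only 100 probe sets were changed at each size, fewer than were called at L1 in the data, and noise was independent between arrays. These rates therefore need not hold for the real arrays.

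Gene names came from the platform annotation; biotype, chromosome and gene order came from RefSeq (WBcel235), where all 85 members matched. No sequence is printed, since the tables used hold none.

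The members and gene lists were chosen with earlier results of these data known. Named were: called members, up to 10 per direction and strain comparison or per interaction; the 5 largest rises and falls of each N2 stage comparison; bath-15, bath-40, bath-42, bath-44 and math-33; members with conflicting probe sets; neighbours of these; the members nearest the threshold; lin-35; and called genes of the CUL-3 list with cul-3, mel-26, mei-1 and mei-2. Members beyond 10 in a direction are also named, chosen after their values were seen. Alternatives were median centring, quantile normalization, a mean level of at least 6, a replicate block, an intensity trend, averaged probe sets, stage-only fits, embryo replicate 1 left out or blocked, and each array left out.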

Additional observations from a re-analysis of the deposited data

Results flagged for a closer look

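Strain differences that changed between stages by the limma interaction test (adjusted p under 0.05), as differences of log2 differences, are listed here for the members named by the rule. Groups of 3 arrays were too small for a test of single outlying arrays.

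The strain difference at L1 exceeded that in embryos by 2.24 in math-15, 1.91 in bath-36, 1.5 in math-39, 1.41 in math-38, 1.37 in math-40, 1.3 in math-27, 1.22 in math-37, 1.13 in math-28, 0.99 in math-22 and 0.96 in math-20. In all 10 the mutant was higher at L1, and in math-27 it was lower in embryos. The math-22 call was lost without both embryo replicate 1 arrays (0.906) and in some fits without 1 array.

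The strain difference at L4 exceeded that in embryos by 1.59 in math-27, 1.51 in math-38, 1.40 in math-40, 1.27 in math-15, 1.25 in bath-46, 1.06 in math-22, 1.02 in math-26, 1.00 in bath-47 and 0.92 in bath-26. In bath-5 it moved by -1.63, from higher in mutant embryos to lower at L4. The math-22 call was lost without both embryo replicate 1 arrays (0.976). Those of math-15 and bath-26 were lost in some fits without 1 array.

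The strain difference at L4 lay below that at L1 in bath-36 (-1.38), bath-5 (-1.09), math-28 (-0.88), bath-2 (-0.78), bath-41 (-0.76), bath-1 (-0.64) and bath-15 (-0.60). It lay above it in math-41 (0.76) and bath-46 (0.56). The interactions from embryo share the embryo arrays, and those involving L1 share the L1 arrays, so they are not independent of each other.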

How the results depend on the processing

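Of the 54 strain calls, 37 passed under every alternative run other than the level filter, 40 passed whichever 1 array was left out, and 48 passed with the arrays of their stage alone. Requiring a mean of at least 6 kept only 12 members in the test, so counts fell by construction: in embryos 2 lower, at L1 2 higher and 1 lower, at L4 4 higher and 3 lower, from N2 embryo to L1 4 higher and 6 lower, from L1 to L4 5 and 2, from embryo to L4 3 and 6, and 3, 2 and 3 interaction calls (embryo to L1, L1 to L4, embryo to L4). Quantile normalization gave 14 higher members from N2 embryo to L1, 20 from embryo to L4 and 1 lower member between the strains at L1; the cause was not tested. With L1 arrays alone 1 member was lower. In embryos averaged probe sets gave 2 higher members, and 0 were higher without both replicate 1 arrays. With 1 array left out, lower members in embryos ranged from 3 to 6, lower members at L1 from 1 to 2, and L1 to L4 interaction calls from 4 to 13. Uncalled differences changed sign in bath-15 at L1 (-0.005 after centring, -0.051 to 0.198 with 1 array left out) and in bath-44 in embryos (-0.021 after centring, -0.168 to 0.16 with 1 array left out). Whether the replicate numbers pair the arrays is not settled. Same-numbered deviations correlated between -0.052 and 0.269, and differently numbered ones between -0.231 and 0.181. Replicate 1 of both embryo groups stood apart in the hybridization controls. With the replicate block 19 members were higher at L1 and 18 at L4. Low signal limits most members, 63 of which stayed under 6 in every group.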

Other observations

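Probe sets that name several genes were left out of the comparisons, and 5 of them name at least 1 bath or math gene. They are described here after their values were seen. A probe set naming F14D2.15 and bath-27 averaged 8.25 in N2 embryos, 5.24 at L1 and 7.16 at L4, and at L4 it was lower in lin-35(n745) by 0.61 ± 0.14 (6.55 against 7.16; limma adjusted p = 0.00468). It is the only probe set here that names bath-27, and its signal cannot be assigned to either gene.

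Of the 2 probe sets naming bath-29 and bath-30 together, the brighter averaged 7.98, 4.47 and 6.62 at the 3 N2 stages and was called in no strain comparison (-0.26 ± 0.11 at L4, adjusted p = 0.137). The dimmer averaged 6.06, 3.84 and 5.01 and was called higher in mutant embryos (0.42 ± 0.12, adjusted p = 0.0278) and lower at L4 (-0.42 ± 0.12, adjusted p = 0.0168). Both fell from embryo to L1 (-3.51 ± 0.11 and -2.22 ± 0.12). The own probe set of bath-29 fell too (-1.34 ± 0.13), but that of bath-30 was called higher (0.58 ± 0.12, adjusted p = 0.000172). The probe set naming bath-3 and bath-4 was not called between the strains at L4 (-0.41 ± 0.16, adjusted p = 0.0932), where the genes' own probe sets were called lower. The one naming math-48 and math-47, with a mean of 3.27, was called at neither larval stage. Its strain difference was -0.14 ± 0.10 at L1 (adjusted p = 0.383) and 0.04 ± 0.10 at L4 (adjusted p = 0.88). The own probe set of math-47 was called higher at both (0.53 ± 0.11 and 0.72 ± 0.11), and that of math-48 at neither.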
